A study of Mus musculus with 8 samples.

Results

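The S100 and annexin genes of effector cells were followed in CD4+ T cells that induce colitis, with the galectin gene Lgals1 beside them. These are S100a4, S100a6, S100a10, S100a11, S100a13, Anxa1, Anxa2, Anxa5, Anxa6 and Lgals1, 10 of the 22180 genes that had a probe set of their own on the array. Each was read from the probe set annotated with its symbol alone, of which every one of the 10 had 1. In that order the S100 genes had probe sets 17399802, 17399812, 17400000, 17399995 and 17399769, the annexins 17363407, 17518962, 17404796 and 17262887, and Lgals1 17312829. Gene expression was measured on 8 Affymetrix arrays. Mice lacking T and B cells (Rag1-/-) received wild-type (wt) CD4+CD62L+ T cells carrying CD45.1. The same number of Irak1-/- CD4+CD62L+ T cells carrying CD45.2 was given together with them. The CD3+CD4+ cells with each CD45 form were sorted 14 days later from the mesenteric lymph nodes, at a stated purity above 99.5%. The cell donors are labelled C57BL/6, with no age given, and every replicate experiment (4 in all) supplied an array per genotype from the pooled cells of 2 recipients. All cells of both groups had therefore gone through the same transfer, into hosts that lack T and B cells but keep myeloid and NK cells. The CD45 form goes with the genotype, so effects of either cannot be told apart. None of the 10 genes lies on chromosome 1, which carries the CD45 gene Ptprc, or on the X chromosome, which carries Irak1: in the GRCm38.p6 gene table they lie on chromosomes 3, 9, 11, 15 and 19. IRAK1 is a kinase that relays signals from the receptors for IL-1 and IL-18 and from Toll-like receptors to NF-kappaB.

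S100 proteins are small calcium sensors of the EF-hand type that form dimers and change the activity of the proteins they bind. Annexins bind the acidic phospholipids of membranes when calcium is present and take part in membrane repair, vesicle traffic and the link between membrane and actin, and several S100 proteins bind an annexin as their partner. Galectin-1, the product of Lgals1, binds galactose-bearing glycans on the T cell surface. Many of these genes are low in naive CD4 T cells and high in effector and memory cells, which is why they are read as marks of an effector state, and macrophages and fibroblasts transcribe them as well.

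No difference between Irak1-/- and wt cells was detected for any of the 10 genes. Of the 10, 0 passed an adjusted p under 0.05 in limma with the replicate experiment as a block, where 0.0751% of the 13308 genes tested passed (0.0676% higher and 0.00751% lower in Irak1-/- cells). At an unadjusted p under 0.05 there were also 0 of 10, where 6.70% of all genes passed (2.88% higher and 3.82% lower). Differences, given as Irak1-/- minus wt on the log2 scale, were negative for 9 of the 10 genes and for 58.1% of all genes. Their median was -0.15, beside -0.03 over all genes. That median rested on 1 array: without replicate 3 it was 0.0013, and with only its Irak1-/- array dropped, in a fit with no block, it was 0.026. The ranges of wt and Irak1-/- levels overlapped for all 10 genes, where 1.86% of all genes had Irak1-/- levels wholly below wt and 1.17% wholly above. No gene of the 10 moved the same way in all 4 experiments, where 8.93% of all genes were lower and 5.26% higher in each. The 95% confidence intervals reached 0.24 to 0.46 to either side of the fitted difference, or 1.18-fold to 1.37-fold. These widths match an unadjusted p of 0.05, and the adjusted threshold asks for larger differences. Differences of that size, and some above it, could therefore go undetected with 4 arrays per group. In sorted populations a lower level can mean fewer cells of a type or less RNA per cell, and these cannot be told apart here.

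**Figure D1:**
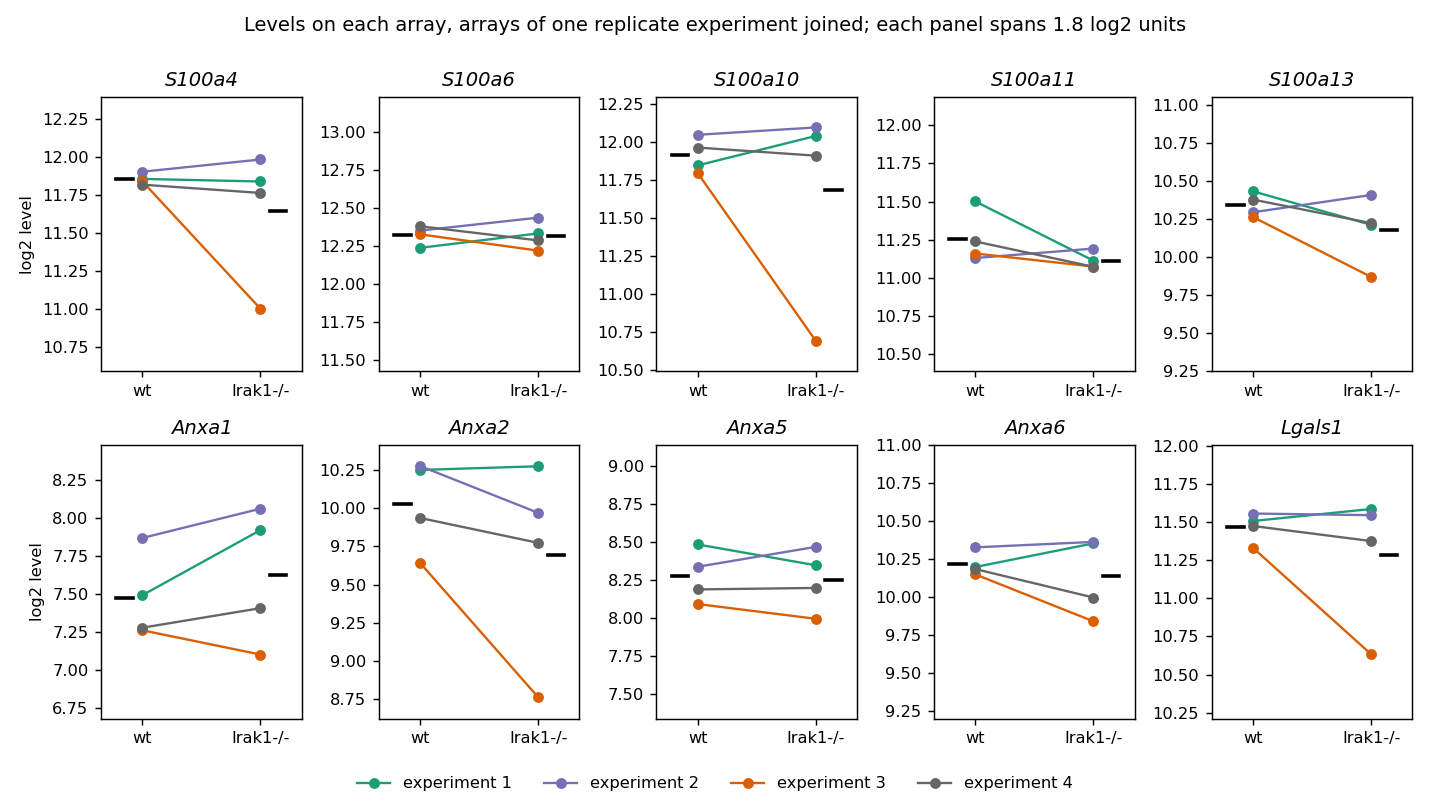
Log2 level of each gene on each array (vertical axis; all panels span the same range), with wt on the left and Irak1-/- on the right, a line joining the 2 arrays of a replicate experiment, and black bars marking the group means (n = 4). S100a10 falls from 11.80 to 10.69 in experiment 3 and stays between 11.85 and 12.10 on the arrays of the others, while S100a6 stays between 12.22 and 12.43 throughout.

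A single library, Irak1-/- replicate 3, differed from the others, and the differences of several of these genes depend on it, although 0 of 10 passed with it or without replicate 3. Over the tested genes it correlated with the other arrays at 0.957 to 0.970, and the other 7 with each other at 0.976 to 0.986. It gave the lowest reading of 9 of the 10 genes. S100a11 was the exception, with 11.07 on both that array and the Irak1-/- array of replicate 4. Irak1 itself read 6.39 to 7.16 in wt and 6.61 to 6.997 in Irak1-/- arrays, and since the labels do not say which part was deleted, this does not check the genotype.

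S100a4 encodes a protein that binds non-muscle myosin and is known for its part in cell motility. It read 11.86, 11.90, 11.84 and 11.82 in the wt arrays of experiments 1 to 4, and 11.84, 11.98, 11.004 and 11.77 in the Irak1-/- arrays. The wt arrays lay within a narrow band, 11.86 ± 0.0362 (SD, n = 4), and 3 of 4 Irak1-/- arrays lay in or close to it, while the array of replicate 3 was 1.79-fold lower than its wt partner. The fitted difference was -0.21 (95% confidence interval -0.57 to 0.16, adjusted p = 0.898). Without replicate 3 it was 0.0030, with an adjusted p of 0.999.

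S100a6, or calcyclin, is the neighbour of S100a4 with only S100a5 between them, and its product binds the ubiquitin ligase component CacyBP. Its wt readings were 12.24, 12.35, 12.32 and 12.38, and its Irak1-/- readings 12.33, 12.43, 12.22 and 12.29. No array stood out, the one of replicate 3 included. The group means were 12.32 ± 0.0613 and 12.32 ± 0.0910 (SD, n = 4), and the difference was -0.0050 (95% confidence interval -0.25 to 0.24, adjusted p = 0.995), with the narrowest interval of the 10. Cacybp had a difference of 0.14 (adjusted p = 0.889), positive in 4 of 4 experiments.

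S100a13, S100a4 and S100a6 lie in one run of S100 genes on chromosome 3, together with S100a8 and S100a9, the subunits of calprotectin, a protein of neutrophils and monocytes. The 250 bases before the start of S100a4, S100a6 and S100a8 are shown as windows of neighbours in 1 cluster. S100a4 was low on 1 Irak1-/- array, S100a6 was steady and S100a8 lay above wt on every Irak1-/- array. None of these genes passed the test between genotypes, and a link between the windows and the readings was not tested. The windows come from RefSeq on GRCm38.p6, plus strand, 5′ to 3′, at chr3:90603520-90603769, chr3:90612644-90612893 and chr3:90668821-90669070. Capitals mark matches, on either strand, to the TATA box TATAAA, the AP-1 motif TGANTCA or the NF-kappaB motif GGGA, any base, TTTCC, which do not overlap here.
S100a4: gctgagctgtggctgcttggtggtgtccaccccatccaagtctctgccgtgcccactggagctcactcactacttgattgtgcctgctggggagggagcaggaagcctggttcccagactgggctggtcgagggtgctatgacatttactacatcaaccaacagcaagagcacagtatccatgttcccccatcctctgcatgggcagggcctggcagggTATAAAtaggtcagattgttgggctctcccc
S100a6: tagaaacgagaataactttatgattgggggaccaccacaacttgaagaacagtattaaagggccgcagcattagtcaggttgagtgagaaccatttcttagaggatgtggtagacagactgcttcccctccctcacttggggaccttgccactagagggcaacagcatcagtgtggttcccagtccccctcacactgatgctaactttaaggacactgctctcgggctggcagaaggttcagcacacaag
S100a8: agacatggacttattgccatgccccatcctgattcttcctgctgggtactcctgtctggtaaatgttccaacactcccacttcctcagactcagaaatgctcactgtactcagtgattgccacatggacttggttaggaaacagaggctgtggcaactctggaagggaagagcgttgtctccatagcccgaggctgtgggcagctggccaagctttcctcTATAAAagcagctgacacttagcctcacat
The S100a4 and S100a8 windows each hold a TATA box, 31 to 26 and 30 to 25 bases before the start, and the S100a6 window holds none of the 3 motifs. TATAAA was found in 12.4% of all 32851 windows of this length, TGANTCA in 6.75% and the NF-kappaB motif in 0.356%. The RefSeq table held 7 of the 10 genes, and S100a10, Anxa6 and Lgals1 were not in it. Of those 7 windows 3 held TATAAA (S100a4, Anxa1 and Anxa2), 2 held TGANTCA (S100a11 and Anxa2) and 0 held the NF-kappaB motif. These are matches of letters and not measured sites.

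S100a10, also called p11, is the S100 protein that no longer binds calcium and pairs with annexin A2. It read 11.85, 12.05, 11.80 and 11.96 in wt arrays and 12.04, 12.10, 10.69 and 11.91 in Irak1-/- arrays. Of the 10 genes it moved farthest on any array, to a level 2.15-fold lower than that of the wt partner in experiment 3. The other 3 Irak1-/- arrays had a mean of 12.02 ± 0.0953 (SD, n = 3), against 11.91 ± 0.114 (SD, n = 4) in wt. The fitted difference was -0.23 (95% confidence interval -0.69 to 0.23, adjusted p = 0.910), and 0.06 without replicate 3, with an adjusted p of 0.975.

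S100a11, which binds annexin A1, lies next to S100a10 and well apart from the main run of S100 genes, 56 protein-coding genes beyond S100a9. It read 11.50, 11.13, 11.16 and 11.24 in wt arrays and 11.11, 11.19, 11.07 and 11.07 in Irak1-/- arrays. Here the highest value was that of a wt array, the one of replicate 1, and the Irak1-/- arrays were alike, at 11.11 ± 0.0562 (SD, n = 4). The difference was -0.14 (95% confidence interval -0.41 to 0.12, adjusted p = 0.900) and -0.06 without replicate 1. The array also carries a probe set for the pseudogene S100a11-ps, with levels from 6.07 to 6.54, and signal shared between gene and pseudogene was not tested.

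S100a13 takes part in the release of IL-1 alpha and FGF1 outside the usual secretory route. Its wt readings were 10.43, 10.29, 10.26 and 10.38, and its Irak1-/- readings 10.21, 10.41, 9.87 and 10.22. It was lower in 3 of 4 Irak1-/- arrays than in their partners, by -0.22, -0.39 and -0.15 in experiments 1, 3 and 4. The fitted difference was -0.16 (95% confidence interval -0.43 to 0.11, adjusted p = 0.889). It was -0.09 without replicate 3, -0.26 without replicate 2 and -0.06 with no block and only Irak1-/- replicate 3 dropped.

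Among the annexins, Anxa2 came closest to a difference and did not reach it. Annexin A2 assembles plasminogen and its activator at the cell surface and, with S100a10, joins membranes to actin. It read 10.25, 10.28, 9.64 and 9.94 in wt arrays and 10.28, 9.97, 8.76 and 9.77 in Irak1-/- arrays. Lower readings came from replicates 3 and 4 in either genotype, and the lowest from the Irak1-/- array of replicate 3, 1.84-fold below its partner. The difference was -0.33 (95% confidence interval -0.68 to 0.02, adjusted p = 0.778), the largest of the 10 in size, with 3 of 4 experiments lower. It was -0.15 without replicate 3, and -0.02 without the block and without that 1 Irak1-/- array. Without replicate 1 it was -0.45, with an unadjusted p of 0.0304. The unadjusted p was also under 0.05 after quantile normalization (0.0424) and with trend and robust settings (0.0326), and the adjusted p of these 3 fits was 0.697, 0.691 and 0.716. The 250 bases before its start, on the plus strand of GRCm38.p6 at chr9:69453433-69453682, are shown as the window of the gene with the largest difference, and the only one of the 7 with matches to more than 1 of the motifs. The AP-1 match lies 95 to 89 bases before the start and the TATA box 17 to 12.
Anxa2: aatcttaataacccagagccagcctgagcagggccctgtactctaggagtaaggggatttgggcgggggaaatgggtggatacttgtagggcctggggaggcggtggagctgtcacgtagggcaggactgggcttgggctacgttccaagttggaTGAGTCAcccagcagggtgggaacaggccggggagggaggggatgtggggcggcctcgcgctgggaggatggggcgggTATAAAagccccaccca

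Anxa1 was the only gene of the 10 with a positive difference. Annexin A1 is released at sites of inflammation, acts on formyl peptide receptors and dampens the entry of leukocytes. Its wt readings were 7.49, 7.87, 7.26 and 7.28, and its Irak1-/- readings 7.92, 8.06, 7.10 and 7.41. In experiments 1, 2 and 4 the Irak1-/- array was the higher of the pair, and in experiment 3 the lower. The difference was 0.15 (95% confidence interval -0.13 to 0.43, adjusted p = 0.908), or 0.25 without replicate 3 (adjusted p = 0.792) and 0.05 without replicate 1 (adjusted p = 0.950). Of its receptors, Fpr2 read 3.91 ± 0.302 in wt and 5.24 ± 0.779 in Irak1-/- arrays (SD, n = 4), a difference of 1.33 that did not pass (adjusted p = 0.404). That wt mean lay under the median of every array, 4.25 to 4.31, so its size is uncertain. Fpr1 was not analysed here.

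Anxa5 and Anxa6 were steadier. Annexin A5 covers phosphatidylserine and serves as a probe of dying cells, and it read 8.49, 8.34, 8.09 and 8.19 in wt and 8.35, 8.47, 7.997 and 8.20 in Irak1-/- arrays. Its difference was -0.02 (95% confidence interval -0.27 to 0.22, adjusted p = 0.983), a sign that turned without replicate 1 or replicate 3. Annexin A6, a large annexin of the plasma membrane and endosomes, read 10.20, 10.33, 10.15 and 10.18 in wt and 10.35, 10.36, 9.84 and 9.998 in Irak1-/- arrays. Irak1-/- readings were above wt in experiments 1 and 2 and below wt in experiments 3 and 4. The fitted difference was -0.08 (95% confidence interval -0.35 to 0.19, adjusted p = 0.950), and 0.0014 without replicate 3.

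Lgals1 encodes galectin-1, which binds CD45, CD43 and CD7 on T cells and can trigger their death. It read 11.51, 11.56, 11.33 and 11.48 in wt arrays and 11.59, 11.55, 10.63 and 11.38 in Irak1-/- arrays. Of the Irak1-/- arrays 3 of 4 lay in the wt range or just above it, and the array of replicate 3 lay 1.62-fold below its partner. The difference was -0.18 (95% confidence interval -0.51 to 0.15, adjusted p = 0.898), or -0.01 without replicate 3 (adjusted p = 0.995).

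**Figure D2:**
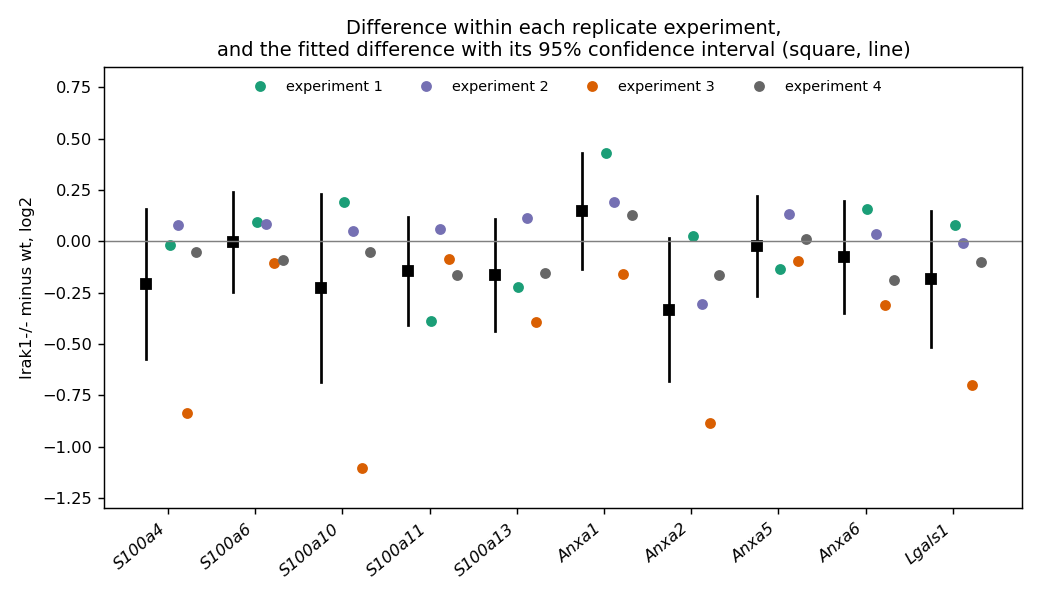
Irak1-/- minus wt on the log2 scale (vertical axis) for each gene (horizontal axis), with a coloured point for each replicate experiment and a black square with a line for the fitted difference and its 95% confidence interval. Every interval includes 0, and the points of experiment 3 lie lowest for S100a4 (-0.84), S100a10 (-1.10), Anxa2 (-0.88) and Lgals1 (-0.70).

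Within experiment 3 the fall was uneven. S100a10, Anxa2, S100a4 and Lgals1, 4 of the 10 genes, lay below the 5th percentile of all tested genes, -0.66, where 5.0% of all genes lie by construction. S100a13 and Anxa6 had -0.39 and -0.31, and S100a6, S100a11, Anxa1 and Anxa5 lay between -0.16 and -0.09. Only 0.639% of all genes had a difference in experiment 3 as low as that of S100a10, 1.72% as low as Anxa2, 2.17% as low as S100a4 and 4.12% as low as Lgals1. The median of the 10 genes was -0.35 there, against -0.06 over all genes. In the other experiments it was 0.05, 0.07 and -0.10, against -0.0037, -0.04 and 0.0021 over all genes, and none of the 10 lay beyond the 5th or 95th percentile. This array was singled out by its values, so these figures describe it and carry no test.

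**Figure D3:**
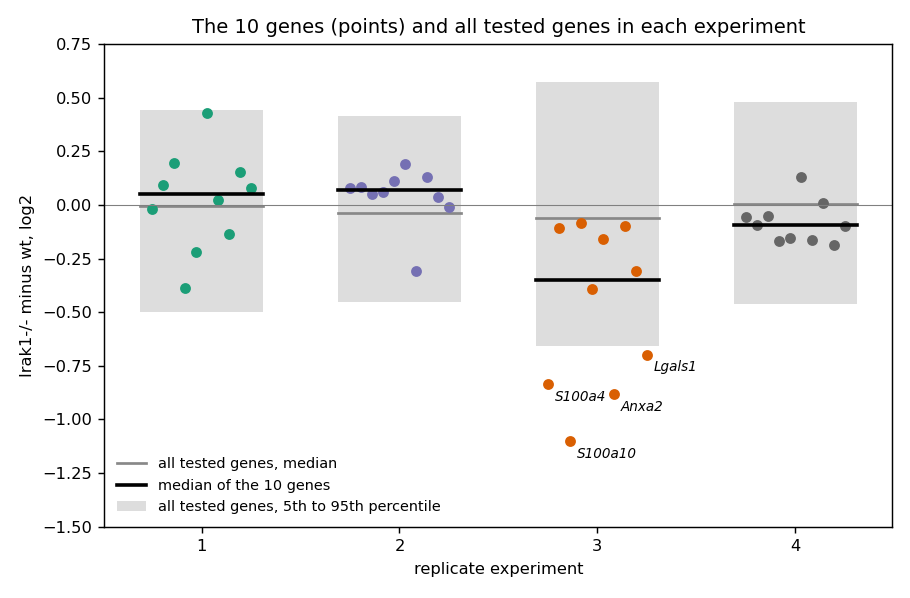
Irak1-/- minus wt on the log2 scale (vertical axis) in each replicate experiment (horizontal axis), with points for the 10 genes in the same order as they are introduced, black lines for their median, grey boxes for the 5th to 95th percentile of all 13308 tested genes and grey lines for the median of these. The 10 genes lie inside the grey box in experiments 1, 2 and 4, and 4 of them lie below it in experiment 3.

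Part of the likeness between the genes across arrays came from that array. Over 8 arrays Pearson's r between S100a4 and S100a10 was 0.98 (Spearman's rho 0.64), and over the 7 arrays without it 0.59 (rho 0.46). For the partners S100a10 and Anxa2 r was 0.91 with it (rho 0.74) and 0.49 without (rho 0.61). S100a10 and Lgals1 kept more of theirs, with 0.98 and 0.79 (rho 0.83 and 0.75). With the 2 arrays farthest from the S100a4 or S100a10 median left out, these 3 values of r were 0.30, 0.64 and 0.79. Over all 45 pairs of the 10 genes the median r was 0.71 with the array and 0.55 without, and 2 and 4 of the pairs had a negative r. The arrays share recipients, experiments and normalization, so these values are descriptions. By the same measure, the 5 tested genes whose level was most like the mean of the 10 over 8 arrays were Nubp2, an iron-sulphur cluster assembly factor, Cox5a, a subunit of cytochrome oxidase, Cast, the calpain inhibitor calpastatin, Ppp1r11, an inhibitor of protein phosphatase 1, and Zfp729a, a zinc finger gene. Their r ran from 0.979 to 0.984, and without the Irak1-/- array of replicate 3 from 0.872 to 0.927, over 7 arrays. None of these 5 passed the test between genotypes, with adjusted p between 0.898 and 0.962.

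Levels also varied between the replicate experiments, with ranges of 1.06 for Anxa2, 0.83 for S100a10 and 0.78 for Anxa1. For S100a10 the wt arrays alone ran only from 11.80 to 12.05, and the limma p between experiments was 0.0660, or 0.613 without the Irak1-/- array of replicate 3 (adjusted p = 0.535 and 0.917). The mean of the wt and Irak1-/- arrays of Anxa1 was 7.71, 7.96, 7.18 and 7.34 in experiments 1 to 4, beside a genotype difference of 0.15. For Anxa2 it was 10.27, 10.12, 9.20 and 9.86, and for S100a6 it stayed within 0.12. The experiment terms of the fit had unadjusted p of 0.00682 for Anxa1 and 0.00419 for Anxa2 in limma, but adjusted p of 0.412 and 0.392. Of the 10 genes 0 passed, as did 0 of 13308 (0%) at an adjusted p under 0.05, while 9.66% of all genes and these 2 of the 10 had an unadjusted p under 0.05. This test was chosen after the values were seen. Without the Irak1-/- array of replicate 3 the unadjusted p was 0.0149 for Anxa1 and 0.0259 for Anxa2, and without replicate 3 it was 0.0103 and 0.0720.

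The rest of the 3 families was mostly low or level, apart from the calprotectin genes. Of 11 other S100 genes, 7 passed the filter on mean level, and of these 0 passed the adjusted threshold. At an unadjusted p under 0.05, 2 were higher, S100a8 and S100a9, where 2.88% of all genes were. Their wt means, 4.70 and 4.79, lay not far above the array medians, and both genes also belong to the list of myeloid markers used below. S100a8 read 4.63, 3.98, 5.74 and 4.47 in wt arrays and 5.74, 7.24, 7.94 and 8.38 in Irak1-/- arrays, a difference of 2.62 (SE 0.375, adjusted p = 0.0635). Its groups did not overlap, as holds in this direction for 1.17% of all genes, although the lowest Irak1-/- array, at 5.74, lay barely above the highest wt array. S100a9 had 1.05 (SE 0.269, adjusted p = 0.416), with a higher Irak1-/- level in 3 of 4 experiments. S100a3 and S100a1 had differences of -0.24 and 0.11, at levels near the array medians.

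Of 8 other annexins 2 were tested and 0 passed. Anxa4, a phospholipid-binding annexin of secretory epithelia, read 6.60, 6.07, 5.71 and 5.84 in wt and 6.29, 6.10, 4.89 and 5.46 in Irak1-/- arrays, with a difference of -0.37 (unadjusted p = 0.0320, adjusted p = 0.698). Its lowest reading again came from the Irak1-/- array of replicate 3. Anxa7 had 0.08. All 5 tested galectins of 7, among them Lgals3 (-0.15), Lgals7 (-0.14), Lgals8 (-0.11) and Lgals9 (-0.14), had negative differences, as did 58.1% of all genes. None of these passed, with adjusted p from 0.909 to 0.941 and 0 of 5 at an unadjusted p under 0.05. Of the binding partners and receptors, 9 of 10 were tested and 0 passed, with a median of -0.03 and 1 gene, Fpr2, at an unadjusted p under 0.05. Ptprc, the CD45 gene, had 0.11 (adjusted p = 0.918) and Hltf -0.07 (adjusted p = 0.948).

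**Figure D4:**
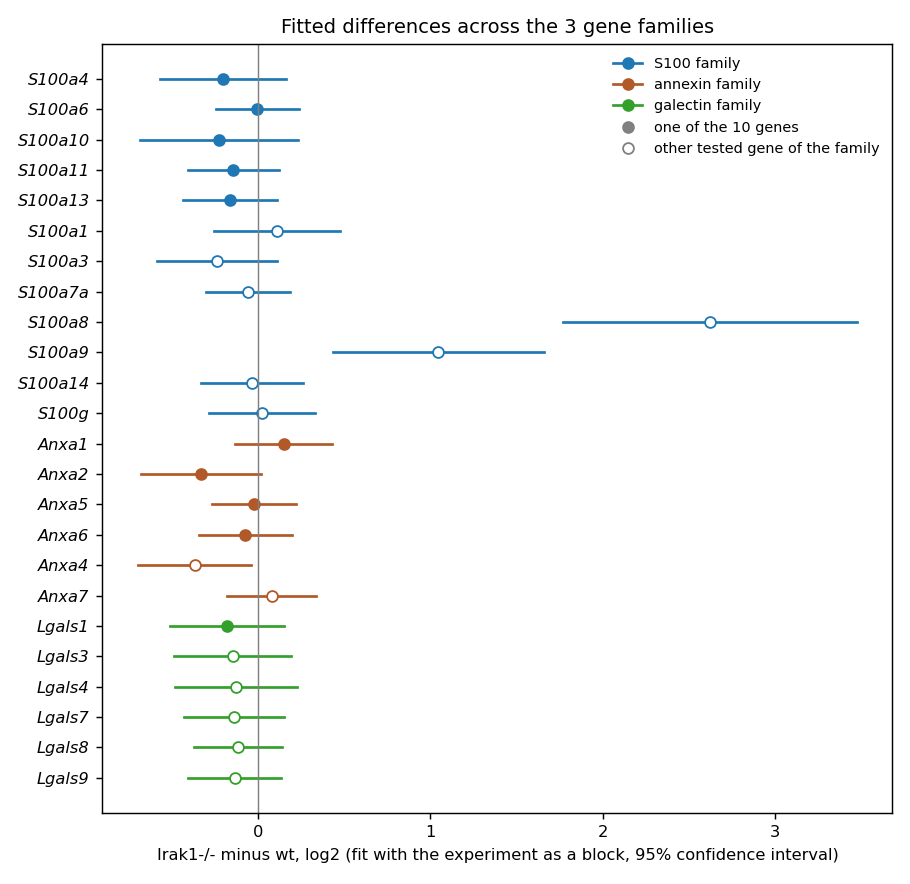
Fitted difference between Irak1-/- and wt on the log2 scale (horizontal axis, lines for 95% confidence intervals) for the tested S100, annexin and galectin genes (vertical axis), filled for the 10 genes and open for others of each family. S100a8 at 2.62 and S100a9 at 1.05 lie to the right of all the filled points, which lie between -0.33 and 0.15.

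Markers of other cells were set beside these values, since macrophages and other myeloid cells also carry S100 and annexin transcripts. Of 16 tested myeloid markers 14 had positive and 2 negative differences. In limma, 4 were higher on the Irak1-/- arrays and 0 lower at an adjusted p under 0.05. Over all genes the shares at that threshold were 0.0676% higher and 0.00751% lower. The 4 were Lyz2, Tyrobp, Fcer1g and H2-Aa, with differences of 4.16, 2.47, 1.89 and 1.74 and limma adjusted p between 0.00161 and 0.00317. At an unadjusted p under 0.05, 11 of the 16 were higher and 1 lower, where 2.88% of all genes were higher and 3.82% lower. These 11 include S100a8 and S100a9, already described with the S100 family. The mean level of 18 myeloid markers ran from 4.87 to 5.14 in wt and from 5.77 to 6.33 in Irak1-/- arrays. By group mean, 5 of the 18 lay under every array median in wt and 2 in Irak1-/- cells. Lyz2, the macrophage lysozyme gene, read 2.34 to 4.59 in wt and 7.30 to 8.78 in Irak1-/- arrays. Its wt mean, 3.84, lay under the median of every array and under the lowest mean level tested, 3.90. It passed the filter through its Irak1-/- arrays, so the size of its difference is uncertain. The 10 genes did not follow the order of the myeloid means. The Irak1-/- array of replicate 4 had the highest myeloid mean, 6.33, and a mean of 10.40 over the 10 genes, and the Irak1-/- array of replicate 3 had 6.14 and 9.92. The wt arrays, with the lowest myeloid means, had 10.39 to 10.61. The part of myeloid transcripts in the values of the 10 genes was not tested.

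Markers of T cells, the labelled cell type, read high on all arrays, which does not measure purity. Of 9 T cell markers, 0 were called at an adjusted or an unadjusted p under 0.05. Their mean ran from 10.04 to 10.09 in wt and from 9.91 to 10.10 in Irak1-/- arrays. The Irak1-/- array of replicate 3 gave the lowest mean, with Cd4 at 8.57 beside 8.86 to 9.18 elsewhere and Cd3e at 10.48 beside 10.63 to 10.83. Lists of 8 B cell, 8 NK and CD8 T cell and 12 stromal and epithelial markers had 5, 8 and 10 tested members, with 0 called in each. At an unadjusted p under 0.05, 4 of 8 NK and CD8 T cell markers were lower, where 3.82% of all genes were, and 0 of the B cell, stromal and epithelial markers passed. Mean levels of 7, 8 and 12 of these in Irak1-/- arrays were 4.16 to 4.41, 5.28 to 5.71 and 4.20 to 4.42, against 4.13 to 4.51, 5.68 to 5.84 and 4.33 to 4.47 in wt.

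The state of the T cells was read from other genes. Of 21 tested genes of activated and effector T cells 0 passed the adjusted threshold. Differences were negative for all 21, as for 58.1% of all genes. At an unadjusted p under 0.05, 10 were lower, where 3.82% of all genes were. The median of the 21 was -0.23. By experiment it was 0.00058, -0.16, -0.58 and -0.21, beside 0.05, 0.07, -0.35 and -0.10 for the 10 genes. Both were lowest in experiment 3. So were the medians of all genes (-0.06), naive genes (-0.26), T cell markers (-0.16), B cell markers, partners, and other galectins and annexins. Those of the myeloid, NK and CD8 T cell, stromal and epithelial, and other S100 lists were lowest in other experiments. Of the 4 with the smallest p, Gzmk, a granzyme, had -0.67 (adjusted p = 0.293) and Gzma -0.49. The death ligand gene Fasl had -0.58 and the Th1 cytokine gene Ifng -0.62. Each was lower in 4 of 4 experiments, as were 8.93% of all genes, and choosing genes by p favours such a shared direction. Of 12 tested genes of naive and central memory cells 0 passed, 7 had positive differences and 3 were higher at an unadjusted p under 0.05, where 2.88% of all genes were. By experiment the median of these 12 was 0.32, 0.07, -0.26 and 0.18. Ccr7, the receptor for entry into lymph nodes, had 0.43 (adjusted p = 0.430), and its highest reading, 7.40, was that of the Irak1-/- array of replicate 3. There it went against its list, whose median was negative in experiment 3. These lists were drawn up with earlier results of the same arrays known.

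**Figure D5:**
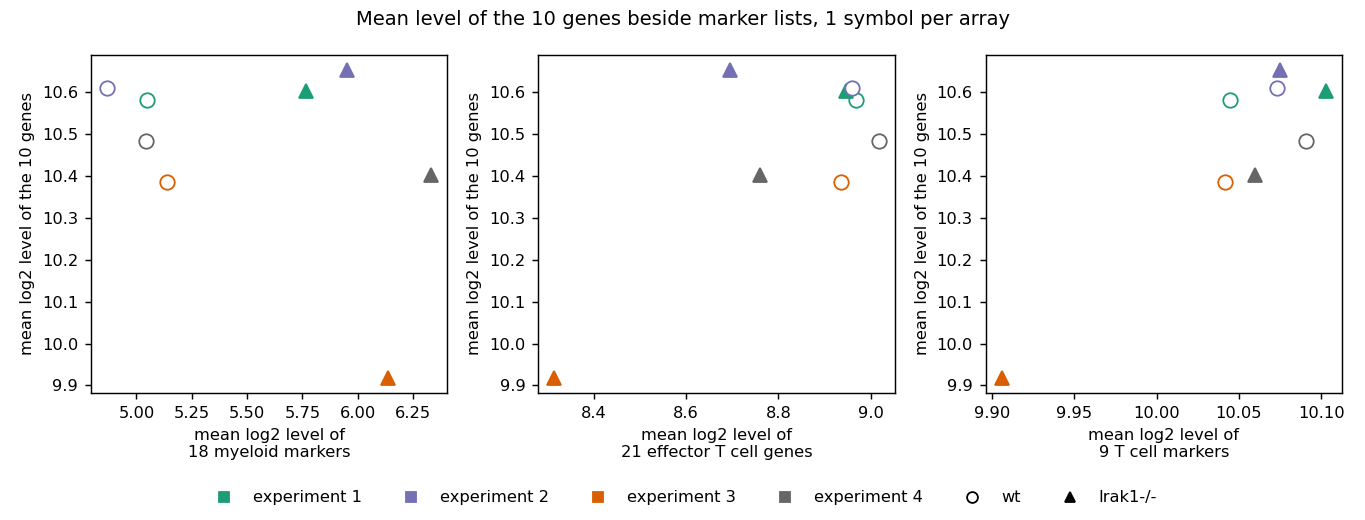
Mean log2 level of the 10 genes (vertical axis) against the mean log2 level of 18 myeloid markers, 21 effector genes and 9 T cell markers (horizontal axes), with 1 point per array, open circles for wt and filled triangles for Irak1-/-, coloured by replicate experiment. The Irak1-/- array of replicate 3 lies alone at 9.92 and has the lowest effector and T cell means, while the Irak1-/- arrays lie at higher myeloid means than all wt arrays.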

How the data were processed

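The authors deposited 1 table of log2 probe set levels for the 8 arrays, from 0.681 to 14.0 with array medians of 4.25 to 4.31. RNA was extracted with TRIzol and labelled with biotin, per the labels' protocols. The labels used here name no background correction or normalization, and the scale was read from the values. Of 41345 probe sets, 23521 had 1 gene symbol, 1814 several and 16010 none. Symbols were looked up by gene identifier for 23328 of them in RefSeq's GRCm38.p6 table. The probe set with the highest mean was kept for each gene, and genes under the 40th percentile of mean level were left out, which left 13308 with a lowest mean of 3.90.

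Genotypes were compared with limma 3.58.1 (R 4.3.3; lmFit, eBayes, two-sided, Benjamini-Hochberg over all genes) with the experiment as a block. The labels pair the arrays by batch, whose cells came from the same pooled recipients. Deviations of paired arrays correlated at 0.185, 0.143, 0.200 and 0.0799. The fit was checked on simulated data. The 10 genes and all lists were chosen with earlier results of these data known. Named are the 10, up to 4 genes of smallest p per list with any past the threshold, Irak1, Ptprc, Lyz2, Tyrobp, Cd3e and Cd4, and the 5 genes most like the 10; S100a11-ps was named after its values were seen. Array number limits the precision. Planned protein comparisons were not made, since no protein sequences were used here. Alternatives were the block, normalization, level filter, probe set rule, variance model and left-out arrays.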

Additional observations from a re-analysis of the deposited data

Results flagged for a closer look

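A sample far from the others of its group of 4 was found for 4 of 56 groups of values looked at, where chance gives about 5% of groups. For S100a10 it was the Irak1-/- array of replicate 3, at 10.69 with the others between 11.91 and 12.10. For S100a4 it was the difference within replicate 3, at -0.84 with the others between -0.05 and 0.08. Lgals9, which encodes galectin-9, read 8.0 on that same Irak1-/- array and 8.32 to 8.33 on the others. Lgals8, which encodes galectin-8, read 7.17 on the wt array of replicate 3 and 7.33 to 7.35 on the others.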

How the results depend on the processing

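Under 13 alternatives none of the 10 genes passed, and 117 of 130 differences kept their sign. With all 8 arrays kept, the block, level filter, probe set rule and variance model left each fitted difference of the 10 unchanged. Their signs could therefore not turn in those fits. All 13 changes of sign came from fits with arrays left out. Leaving out replicates in turn gave ranges of -0.30 to 0.0030 for S100a4, -0.038 to 0.029 for S100a6, -0.37 to 0.063 for S100a10, -0.075 to 0.015 for Anxa5, -0.15 to 0.0014 for Anxa6 and -0.23 to 0.0013 for the median of the 10. For S100a6 the sign turned without replicate 4 (0.024) as well as without replicate 3 (0.029), and for Anxa5 without replicate 1 (0.015) as well as without replicate 3 (0.0012). With no block and only Irak1-/- replicate 3 dropped the differences were 0.0080 for S100a4, 0.028 for S100a6, 0.10 for S100a10, 0.062 for Anxa5, 0.023 for Anxa6 and 0.035 for Lgals1. Over all genes, 9 passed the adjusted threshold as higher and 1 as lower. These became 14 and 2 with a random replicate block or with median centring, 12 and 2 with the filter at the 60th percentile, 13 and 3 with trend and robust settings, 10 and 1 without the replicate block, and 6 to 16 higher, the most without replicate 1, when replicates were left out. The block changed no call among the 10. The cause of these changes was not tested.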
